A study of Mus musculus with 6 samples.

Results

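The osteocyte-like cells of the fracture callus were chosen by their own UMI counts. A barcode was taken if it held at least 3000 UMIs, at most 10% mitochondrial UMIs, at least 5 UMIs of Dmp1, at least 2 of Phex, at most 1 of Ptprc and at most 1 of Cdh5. These limits gave 415 cells among 30589 barcodes that met the limits on UMIs and mitochondrial share, of 46944 barcodes in all. The cells came from 6 single-cell 3′ libraries of femoral fracture calluses at 14 dpf (days post fracture), where every captured RNA molecule is tagged once, so that tags (UMIs, unique molecular identifiers) count molecules. The 3 control libraries have the genotype wt in their labels and Piezo1 f/f in the study's methods. The 3 knockout libraries are labelled Col2CreERT; Piezo3-/- and were made from Piezo1 Col2a1 mice, in which tamoxifen activates a Cre recombinase driven by the Col2a1 promoter. The mice were 12 weeks old and described as male, and both groups received 5 daily doses of tamoxifen (75 mg/kg) that began on day 5. Cre is therefore directed at cells that express Col2a1 while tamoxifen acts, and the libraries do not record which of the osteocyte-like cells descend from such cells.

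Osteocytes are osteoblasts that have become enclosed in the bone matrix they secreted, where they extend dendrites through narrow canals, sense load and fluid flow, and send signals to osteoblasts, osteoclasts and the kidney. DMP1, a secreted acidic phosphoprotein, and PHEX, a membrane endopeptidase, appear as osteoblasts embed, and both restrain the phosphate-wasting hormone FGF23. Sclerostin (Sost) and MEPE mark osteocytes that have matured further in mineralized bone, whereas Ifitm5 and the osteocalcin genes Bglap and Bglap2 mark the mineralizing osteoblast.

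Promoters of 13 of the 15 genes in the list of osteocyte markers were found in the RefSeq table of GRCm38.p6, the build on which the reads had been aligned, from 250 bases before to 50 after an annotated start. They were searched on both strands for the RUNX core TGTGGT, the TATA box TATAAA and the AP-1 motif TGANTCA. The RUNX core was found in promoters of 4 genes (Dmp1, Dkk1, Mepe and Ackr3), the TATA box in those of 4 (Dkk1, Mepe, Ackr3 and Mef2c) and AP-1 in that of Mef2c. By window, the motifs were in 4, 5 and 1 of 16, since Dmp1 and Mef2c have several annotated starts. Among all 32851 windows of that length, 16.8%, 13.6% and 7.81% held them. The windows of Dmp1, Mepe, Dkk1 and Ptprz1 are shown because the cells were selected on Dmp1 and because the others were among the genes that set them apart from osteoblasts. Capitals mark motif matches, on either strand, and a match says only that these letters are present. Dmp1 has another annotated start with none of the motifs in its window, and the one shown (chr5:104202367-104202666, plus strand) lies at the start of the gene's GENCODE M21 model. The windows of Mepe (chr5:104325079-104325378, plus strand), Dkk1 (chr19:30549447-30549746, minus strand) and Ptprz1 (chr6:22875252-22875551, plus strand) follow, the last without a match.
Dmp1: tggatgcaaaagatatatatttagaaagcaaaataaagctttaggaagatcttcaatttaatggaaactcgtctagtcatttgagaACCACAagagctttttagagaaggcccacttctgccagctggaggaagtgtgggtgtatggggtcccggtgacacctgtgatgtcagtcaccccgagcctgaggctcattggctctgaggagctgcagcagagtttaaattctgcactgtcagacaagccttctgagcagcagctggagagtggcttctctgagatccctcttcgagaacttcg
Mepe: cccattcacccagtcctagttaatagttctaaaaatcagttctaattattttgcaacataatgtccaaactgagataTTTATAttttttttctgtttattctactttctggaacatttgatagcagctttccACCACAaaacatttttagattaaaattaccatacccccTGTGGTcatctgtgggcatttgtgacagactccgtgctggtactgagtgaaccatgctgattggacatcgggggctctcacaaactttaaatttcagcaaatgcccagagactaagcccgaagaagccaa
Dkk1: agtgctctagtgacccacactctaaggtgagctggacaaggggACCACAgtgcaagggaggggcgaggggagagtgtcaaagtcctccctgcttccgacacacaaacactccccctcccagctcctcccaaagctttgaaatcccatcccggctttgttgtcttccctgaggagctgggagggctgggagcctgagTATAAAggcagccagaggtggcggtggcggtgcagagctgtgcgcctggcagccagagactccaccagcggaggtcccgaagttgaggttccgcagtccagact
Ptprz1: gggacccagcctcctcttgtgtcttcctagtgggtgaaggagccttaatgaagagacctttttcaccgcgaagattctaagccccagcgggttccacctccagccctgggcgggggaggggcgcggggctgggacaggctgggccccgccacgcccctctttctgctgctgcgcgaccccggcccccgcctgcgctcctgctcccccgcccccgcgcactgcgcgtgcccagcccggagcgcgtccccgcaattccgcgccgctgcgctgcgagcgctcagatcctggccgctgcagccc

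The cells were spread unevenly over the libraries. Control 1 to 3 gave 49, 25 and 16 of them and knockout 1 to 3 gave 16, 199 and 110, so that 2 knockout libraries held most. Their median depth was 38845, 12388 and 10039.5 UMIs in control 1 to 3 and 38797, 18950 and 16856.5 in knockout 1 to 3, and over all 415 cells it was 18866 (3103 to 106562). The whole libraries held between 57626530 and 103784364 UMIs. Knockout 3 stood apart from the description of the mice: its osteocyte-like cells held 414 CPM (UMIs per 1000000 UMIs, over the summed cells) of Xist, the RNA of the inactive X chromosome, where those of the other 5 libraries held at most 0.519, and it held none of the Y-linked Ddx3y, at 41.5 to 105 CPM elsewhere. The comparisons were therefore also run without this library, and the calls that were then lost among the genes described are named with each gene group. Pairs of libraries shared between 4 and 36 barcodes, at most 0.383% of the smaller library.

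Cells near the limits held less Ptprz1 than the whole class, which stood at 372 to 1254 CPM by library. The 27 cells with exactly 5 Dmp1 UMIs held 89.3 CPM of Ptprz1 and the 38 with 4, just outside, held 186. Those outside also held more Dkk1 (58.3 against 24.8 CPM), Bmp4 (64.6 against 16.5), Irx5 (266 against 144) and Sost (17.7 against 6.61). They held less Mepe (20.3 against 92.6 CPM), so the Dmp1 limit did not part cells rich in most of these markers from others. At the Phex limit, the 49 cells with 2 UMIs held 79.0 CPM of Ptprz1 and the 82 with 1 held 68.2. The limits on Ptprc, the pan-leukocyte phosphatase, and on Cdh5, the endothelial cadherin, removed 2, 0 and 0 cells from control 1 to 3 and 3, 45 and 8 from knockout 1 to 3. The chosen genes themselves stood at 1791, 3923 and 2920.2 CPM in control 1 to 3 and 1263, 1585 and 1468 in knockout 1 to 3 for Dmp1 (ENSMUSG00000029307, chr5:104202613-104214102, plus strand). Phex (ENSMUSG00000057457, chrX:157162075-157415312, minus strand) stood at 963, 2146 and 1099 CPM in control 1 to 3 and 647, 652 and 562 in knockout 1 to 3. These levels follow from the choice of cells and carry no test.

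**Figure D1:**
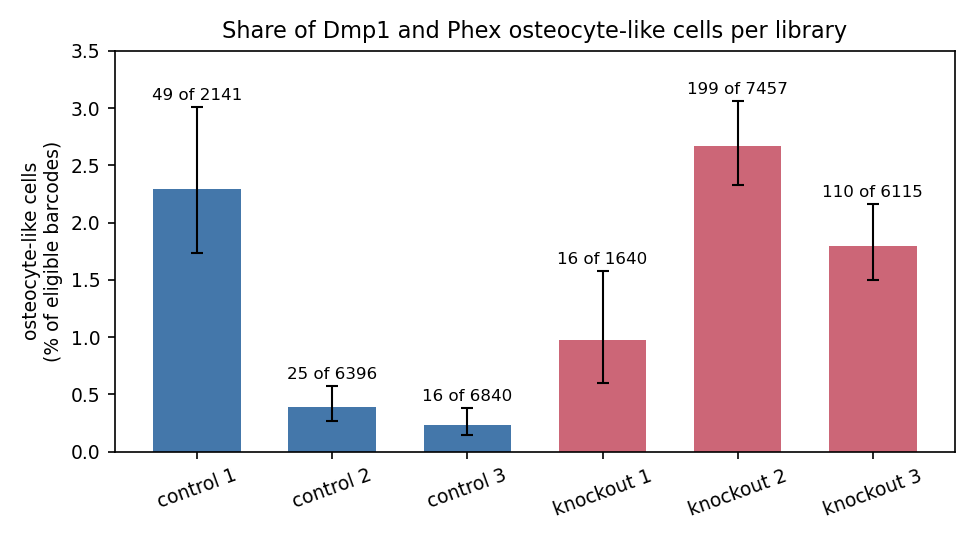
Share of osteocyte-like cells among eligible barcodes in each library (bars, percent, with 95% Wilson intervals as lines), controls in blue and knockouts in red, with the counts above each bar. The 3 control libraries lie at 2.29%, 0.391% and 0.234% and the 3 knockout libraries at 0.976%, 2.67% and 1.80%, so the groups overlap.

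Markers beyond the genes that chose the cells were given with them, with earlier results of these data known. Their presence is therefore a description and no separate support for the name of the cells. Ptprz1, a receptor tyrosine phosphatase best known from glia, had a UMI in 328 of the 415 cells (79.0%), the WNT antagonist Dkk1 in 175 (42.2%) and the ligand Bmp4 in 237 (57.1%). All 3 were found together in 136 cells (32.8%) and none of them in 62 (14.9%). To set classes of unequal depth side by side, cells were thinned to 3000 UMIs. Ptprz1 was then found in 57.3% of osteocyte-like cells, 10.8% of osteoblasts, 7.26% of Wif1 osteoprogenitors, 1.89% of other stromal cells and 0.966% of neutrophils, which should lack it. In a library, up to 39.4% of these neutrophil barcodes were among those with the highest doublet scores, and whether their UMIs came from free RNA or from doublets was not tested. By library, Ptprz1 was found in 61.2%, 68%, 87.5%, 43.8%, 53.3% and 58.2% of the thinned osteocyte-like cells, in the order control 1 to 3 and knockout 1 to 3, and in at most 30.8% of the osteoblasts (4 of 13, knockout 3) and 10.3% of the osteoprogenitors of a library. The shares over all libraries weight them unequally, since knockout 2 gave 269 of the 306 osteoblasts and 199 of the 415 osteocyte-like cells. Over all libraries, Dkk1 was found in 19.0%, 4.25%, 1.02%, 0.222% and 0%, and Bmp4 in 26.7%, 4.58%, 4.06%, 2.33% and 0.858%, in the same order of classes.

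Markers of mature osteocytes were sparser. Mepe, a secreted phosphoprotein that binds mineral, had a UMI in 64 cells (15.4%), Sost in 29 (6.99%), and both in only 6. Thinned, Mepe was found in 6.75% of osteocyte-like cells against 0.980% of osteoblasts and 0.215% of neutrophils, and Sost in 2.17% against 0% and 0.107%. In knockout 3, thinned Sost was in 1 of 110 osteocyte-like cells (0.909%) and 1 of 104 neutrophils (0.962%), so it did not stand above background there. In control 3 it was in 0 of 16 osteocyte-like cells. No UMI of Fgf23 was found in the 415 cells, which allows a share of cells with a UMI of up to 0.723%, for counting error only. Irx5, a homeobox transcription factor, had a UMI in 360 cells (86.7%), Pdpn, the podoplanin of osteocyte dendrites, in 220 (53.0%), and Ackr3, a scavenging receptor for CXCL12, in 244 (58.8%). Thinned, Irx5 was found in 54.7% of osteocyte-like cells against 3.00% of neutrophils, Pdpn in 26.5% against 3.86% and Ackr3 in 24.6% against 2.58%. In knockout 3, Irx5 was about as frequent in osteoblasts (8 of 13, 61.5%) as in osteocyte-like cells (61.8%), and elsewhere at most 33.3% of osteoblasts held it. Ackr3 was in up to 19.6% of the osteoprogenitors of a library (knockout 1), against 31.25% of the osteocyte-like cells there. In control 3 and knockout 1 Pdpn was in 1 of 16 thinned cells each (6.25%). This lay below the neutrophils (8.51% and 8.56%) and the other stromal cells (22.3% and 15.3%) of the same libraries, so no expression is read from it there. Before thinning, 6 of the 16 cells of control 3 and 11 of the 16 of knockout 1 held a Pdpn UMI. These unthinned shares were not set beside those of other classes. Among osteoblast genes, Ifitm5 had a UMI in 336 cells (81.0%), and after thinning in 62.4% of the 415 against 5.90% of neutrophils, where knockout 2 was highest (16.1%). Col1a1 stood at 63137 to 92681 CPM in osteocyte-like cells and at 3893 to 15571 CPM in the neutrophil barcodes of a library. It took at least 1% of the UMIs of 395 cells (95.2%), a line that the summed neutrophil barcodes of knockout 2 also passed. Of the 415 cells, 60 (14.5%) held at least 0.5% of their UMIs in Bglap and Bglap2. Of these cells, 5, 5 and 1 in control 1 to 3 and 0, 37 and 6 in knockout 1 to 3 met every limit of the osteoblast gate and were counted as osteocyte-like only.

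**Figure D2:**
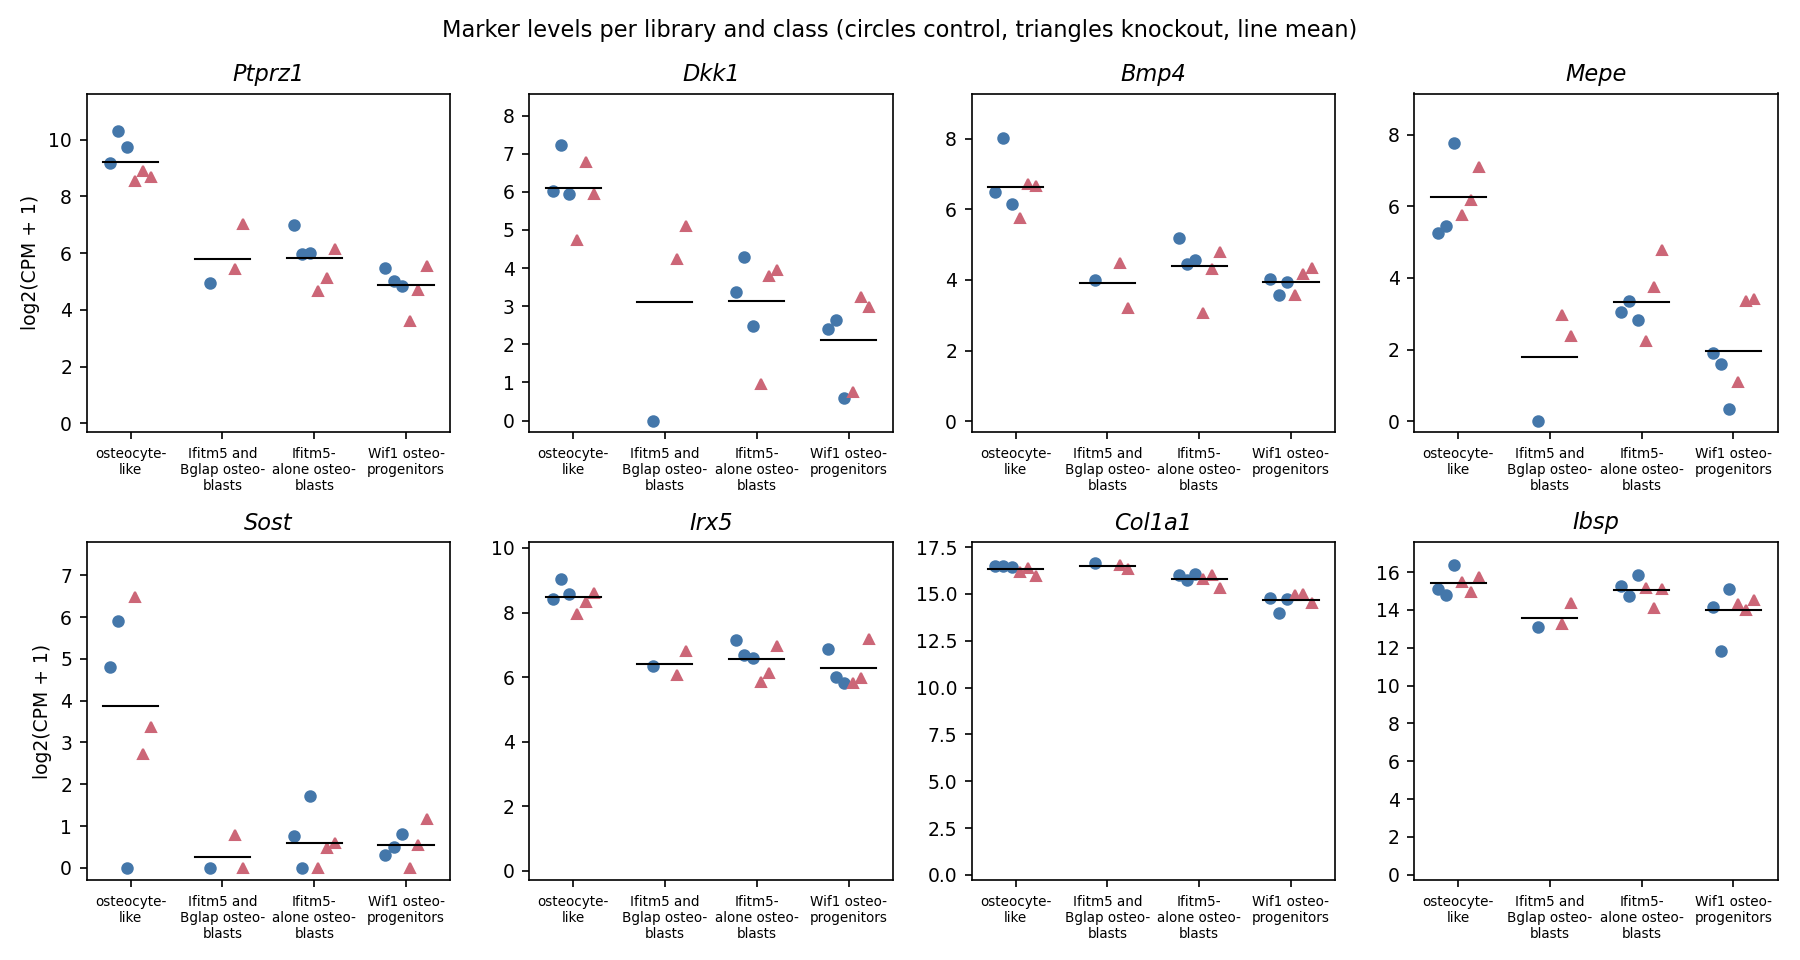
Levels of marker genes in each library on a log2(CPM + 1) axis for osteocyte-like cells, osteoblasts (the 3 libraries with at least 10), osteoblasts chosen by Ifitm5 alone, and osteoprogenitors; each point is 1 library (circles control, triangles knockout) and lines are means. Ptprz1 lies between 372 and 1254 CPM in osteocyte-like cells and at no more than 129 in osteoblasts.

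The cells were not uniform. In 25 of them, 7, 2 and 0 in control 1 to 3 and 2, 0 and 14 in knockout 1 to 3, the cartilage collagen Col2a1 had more UMIs than the bone collagen Col1a1. These 25 cells held 50905 CPM of Col2a1, 4010 of the proteoglycan Acan, 628.9 of Sox9 and 10600 of the hypertrophic collagen Col10a1, against 2496, 441, 108 and 659.8 in the other 390. They also held less Ptprz1 (86.9 against 546 CPM), Dkk1 (5.19 against 88.6) and Ifitm5 (40.2 against 649.8), with Dmp1 at 1367 and 1706 CPM. Their median depth was 21119 UMIs, and 2 of the 25 and 12 of the 390 were among the cells with the highest doublet scores. Whether they are doublets, hypertrophic chondrocytes that express Dmp1 or cells between these states was not tested. Summed over 14 chondrocyte markers, the osteocyte-like cells held 26753, 9464 and 4631 CPM in control 1 to 3 and 20176, 2124 and 18222 in knockout 1 to 3, with Col2a1 the most abundant. Neutrophils of the same libraries held 5517, 8924, 2867, 17282, 579 and 17548 CPM of these markers in that order, so the markers were also counted in barcodes of another cell type, some of them with high doublet scores.

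Marker genes of blood and vessel cells were summed as well. The limits on Ptprc and Cdh5 that chose the cells favour low leukocyte and endothelial sums, which are described only. The 7 endothelial markers other than Cdh5 summed to 20.1 to 67.9 CPM in osteocyte-like cells, led by Egfl7. The 9 neutrophil markers summed to 67.4 to 1154 CPM, led by S100a8, against at least 74977 CPM in neutrophils. The 10 macrophage markers, led by Lyz2, summed to 145 to 1641 CPM, with the highest sum in control 3. The 10 osteoclast markers, led by Ctsk, summed to 322 to 1032 CPM, with Calcr at 0, and the 6 erythroid markers, led by Hbb-bs, to 2.07 to 166 CPM, with Slc4a1 at 0. Pericyte markers (6) summed to 157 to 498 CPM, led by Cspg4, and 10 tendon and fibroblast markers to 46.1 to 268 CPM, led by Saa3. The pericyte sums were above those of osteoblasts in every library that held osteoblasts. Osteoblasts held 225, 182 and 47.8 CPM in control 1 to 3 and 63.5 and 141 in knockout 2 and 3. Osteocyte-like cells held 460, 283, 376, 157 and 277 CPM in the same order.

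To find which genes set the osteocyte-like cells apart from osteoblasts within libraries, the UMIs of each class were summed per library. Osteoblasts were cells outside the osteocyte-like gate with at least 3 Ifitm5 UMIs and at least 0.5% of UMIs in Bglap and Bglap2. There were 306, of which control 1 to 3 gave 3, 12 and 9 and knockout 1 to 3 gave 0, 269 and 13, so that only control 2, knockout 2 and knockout 3 held at least 10 cells of both classes and entered the comparison. With the library as a block, edgeR called 177 of 8823 genes higher in osteocyte-like cells (2.01%) and 93 lower (1.05%), at a Benjamini-Hochberg adjusted p under 0.05, and the median log2 fold change of all genes was 0.01. Dmp1, Phex, Ifitm5, Bglap, Bglap2, Ptprc and Cdh5 served to choose the cells and are not counted. Without knockout 3, 149 genes were higher and 56 lower, 128 and 43 of the genes above were among them, and none of those tested in both fits changed sign. Without knockout 2 the counts were 52 and 29, and without the library block no gene passed, with 378 of 7989 genes at an unadjusted p under 0.05.

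Since so few osteoblasts came from the controls, a second comparison over all 6 libraries, chosen after the data were seen, used osteoblasts defined by at least 3 Ifitm5 UMIs alone, with the same limits on Ptprc and Cdh5. These numbered 73, 45 and 97 in control 1 to 3 and 25, 1299 and 367 in knockout 1 to 3. Of 11047 genes, 655 were higher (5.93%) and 674 lower (6.1%) in osteocyte-like cells, with a median of -0.01, and these included 149 of the 177 and 40 of the 93 genes above. Without knockout 3, 392 were higher and 344 lower, of which 387 and 327 were among those called in the 6 libraries. Both comparisons share the osteocyte-like cells, so they are given side by side and not as separate evidence. Fold changes below are log2 ± SE from edgeR's quasi-likelihood test, first against Ifitm5 and Bglap osteoblasts in 3 libraries and then against Ifitm5-alone osteoblasts in 6.

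Of the osteocyte markers other than the gate genes, 10 of the 11 tested were higher and none lower, with a median of 2.61, in the 3 libraries, and 10 of 11 with a median of 2.26 in the 6. This list was drawn up with earlier results of these data known, so the counts describe the cells and do not test what they are. The 10 were Ptprz1, Dkk1, Bmp4, Mepe, Sost, Pdpn, Irx5, Ackr3, Mef2c and Cd44, and the actin-capping gene Capg did not pass. All 10 also passed without knockout 3, with medians of 2.80 and 2.29. When osteoblasts had the same limits on Ptprc and Cdh5 as osteocyte-like cells, a setting added with the data in view, 8 of 11 passed (median 2.39), and Sost (3.08 ± 0.71, edgeR, adjusted p = 0.0507) and Mef2c (0.80 ± 0.19, adjusted p = 0.059) no longer did. Ptprz1 (chr6:22875502-23052916, plus strand) stood in osteocyte-like cells at 583, 1254 and 853 CPM in control 1 to 3 and 372, 472 and 410.3 in knockout 1 to 3. In osteoblasts it was at 20.9, 30.3 and 0 CPM in control 1 to 3 and 42.1 and 129 in knockout 2 and 3, and in Ifitm5-alone osteoblasts at 24.2 to 127 CPM. No value of osteoblasts reached those of osteocyte-like cells, with a log2 fold change of 3.25 ± 0.36, adjusted p = 5.71e-05, and 3.47 ± 0.23 in the 6 libraries. Without knockout 3 the value was 3.93.

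Dkk1 (chr19:30545863-30549665, minus strand) stood at 63.8, 148 and 60.2 CPM in control 1 to 3 and 25.5, 108 and 60.6 in knockout 1 to 3 in osteocyte-like cells and at 0.93 to 18.7 CPM in Ifitm5-alone osteoblasts. It was higher in 6 of 6 libraries, with log2 fold changes of 2.49 ± 0.35, adjusted p = 0.000382, and 2.95 ± 0.18. Bmp4 (chr14:46383520-46390669, minus strand) stood at 88.7, 260.0 and 70.2 CPM in control 1 to 3 and 52.6, 104 and 100.1 in knockout 1 to 3, above its osteoblasts in every library (2.61 ± 0.27, adjusted p = 1.88e-05, and 2.33 ± 0.21). Mepe (chr5:104325329-104338611, plus strand) stood at 37.3, 42.8 and 216 CPM in control 1 to 3 and 52.6, 71.4 and 135 in knockout 1 to 3, and its highest level in Ifitm5-alone osteoblasts was 26.4 CPM (3.53 ± 0.30, adjusted p = 3.41e-06, and 2.89 ± 0.24). Sost (chr11:101962458-101967015, minus strand) was uneven, at 27.0, 59.2 and 0 CPM in control 1 to 3 and 87.7, 5.59 and 9.28 in knockout 1 to 3. Its log2 fold changes were 3.44 ± 0.71, adjusted p = 0.011, and 4.71 ± 0.47 and only 4 UMIs of it were found in the osteoblasts of the 3 libraries. Pdpn differed by 3.15 ± 0.24 and 2.26 ± 0.49, Irx5 by 2.19 ± 0.20 and 2.04 ± 0.13, Ackr3 by 4.04 ± 0.35 and 2.09 ± 0.43, the hyaluronan receptor Cd44 by 1.69 ± 0.25 and 1.39 ± 0.20, and the transcription factor Mef2c by 0.77 ± 0.18 and 0.63 ± 0.10. Pdpn was higher in 5 of 6 libraries, among them control 3, where no expression is read from it, as above. Knockout 1 held 46.2 CPM of Pdpn in osteocyte-like cells and 128 in Ifitm5-alone osteoblasts.

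**Figure D3:**
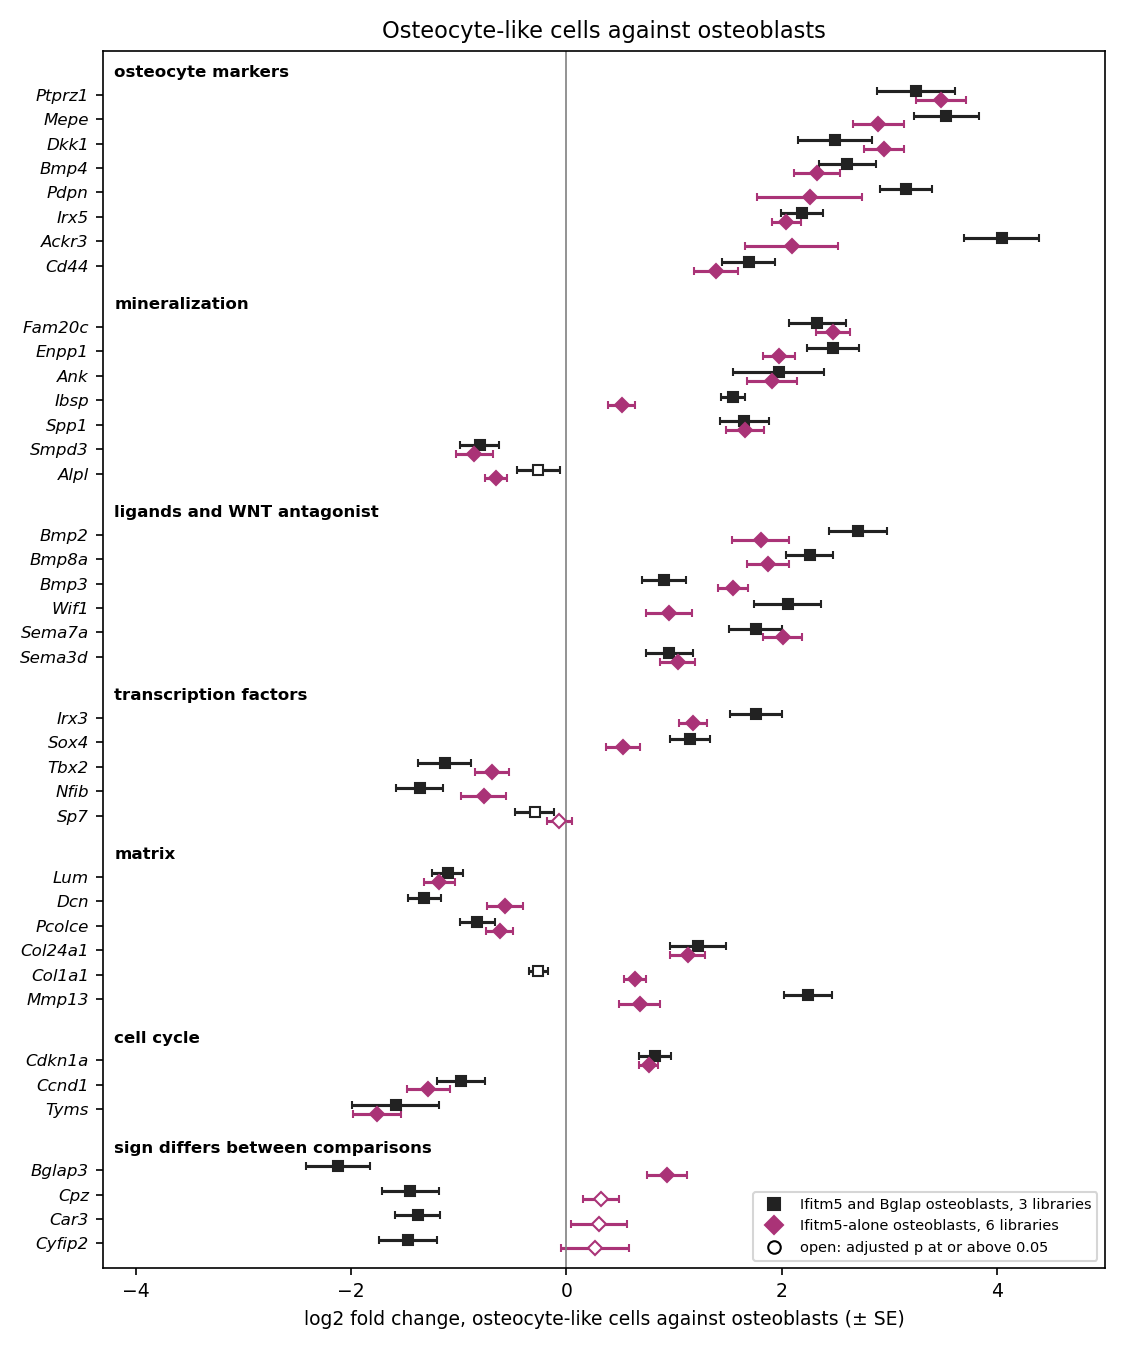
Log2 fold changes of named genes, osteocyte-like cells against osteoblasts (± SE), by gene group; black squares are Ifitm5 and Bglap osteoblasts in 3 libraries, purple diamonds Ifitm5-alone osteoblasts in 6, and open symbols did not pass an adjusted p of 0.05. The 8 osteocyte markers shown lie to the right in both comparisons, whereas Bglap3, Cpz, Car3 and Cyfip2 change sign between them.

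Genes of mineralization and phosphate handling were split. Of 14 tested, 6 were higher (Enpp1, Ank, Fam20c, Mepe, Ibsp and Spp1) and Smpd3 was lower, with a median of 0.71. In the 6 libraries, 9 of 16 were higher and 4 lower, with a median of 0.49. Without knockout 3 the counts were 6 and 0 of 15, and 6 and 2 of 16. Fam20c, the kinase that phosphorylates secreted matrix proteins such as DMP1, stood at 199, 207 and 191 CPM in control 1 to 3 and 295, 129 and 251 in knockout 1 to 3, against 24.5 to 47.3 CPM in Ifitm5-alone osteoblasts (2.33 ± 0.27, adjusted p = 6.91e-05, and 2.48 ± 0.16). Enpp1 makes pyrophosphate, an inhibitor of mineral growth, and Ank is a membrane protein that raises it outside the cell. Enpp1 stood at 215, 197 and 85.3 CPM in control 1 to 3 and 386, 34.6 and 171 in knockout 1 to 3, and the lowest value, in knockout 2, lay inside the range of 16.1 to 87.4 CPM of Ifitm5-alone osteoblasts, although within each library osteocyte-like cells were higher (2.48 ± 0.24, adjusted p = 1.47e-05, and 1.97 ± 0.15). Ank differed by 1.97 ± 0.42 and 1.91 ± 0.23.

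The mineral-binding phosphoproteins Ibsp and Spp1 lie beside Dmp1 and Mepe on chromosome 5, between 104202613 and 104441050 in GRCm38. Spp1 (osteopontin) stood at 14655, 19251 and 24475 CPM in control 1 to 3 and 21112, 7237 and 33039.5 in knockout 1 to 3 and differed by 1.65 ± 0.23, adjusted p = 0.000357, and by 1.66 ± 0.18 in the 6 libraries. Ibsp (bone sialoprotein) stood at 35268, 28268 and 84474 CPM in control 1 to 3 and 46397, 31963 and 53890.5 in knockout 1 to 3. Its log2 fold change was 1.54 ± 0.11, adjusted p = 1.38e-06 against Ifitm5 and Bglap osteoblasts but only 0.51 ± 0.13 against Ifitm5-alone osteoblasts, in 5 of 6 libraries, and without knockout 3 the latter did not pass (0.47, edgeR, adjusted p = 0.0791). Smpd3, the sphingomyelinase of mineralizing osteoblasts and cartilage, was lower (-0.80 ± 0.18 and -0.86 ± 0.17), but without knockout 3 it passed only in the second comparison. Alpl, the alkaline phosphatase that breaks down pyrophosphate, did not pass in 3 libraries (-0.26 ± 0.20) and was lower in the 6 (-0.65 ± 0.10).

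Among secreted signals, 5 of 20 BMP genes were higher and none lower (median 0.07). Besides Bmp4 they were Bmp2 (2.71 ± 0.27, adjusted p = 1.47e-05, and 1.80 ± 0.27), Bmp8a (2.26 ± 0.22 and 1.87 ± 0.19), Bmp3 (0.91 ± 0.20 and 1.55 ± 0.14), which acts mainly as an antagonist, and the inhibitor Smad7 (0.85 ± 0.21 and 0.52 ± 0.13). Bmp2 stood at 118, 322 and 100.3 CPM in control 1 to 3 and 139, 50.9 and 106 in knockout 1 to 3, against 5.23 to 20.2 CPM in osteoblasts. Against Ifitm5-alone osteoblasts, 6 of 25 BMP genes were higher and Fstl3 lower. Bmp3 and Smad7 did not pass with the Ptprc and Cdh5 limits on osteoblasts, and Smad7 did not pass against Ifitm5-alone osteoblasts without knockout 3. Of 14 WNT antagonists and targets, Sost, Dkk1 and Wif1 were higher and none lower. Wif1, which binds WNT ligands, stood at 319, 714 and 206 CPM in control 1 to 3 and 403, 198 and 322 in knockout 1 to 3 and differed by 2.06 ± 0.31 and 0.95 ± 0.21. In the 6 libraries the antagonists Dkk3 (-0.93 ± 0.19) and Notum (-1.07 ± 0.29) and the target Tcf7 (-1.46 ± 0.16) were lower, so 3 of 19 rose and 3 fell. Notum did not pass without knockout 3 (-0.80), and Sost lost its call with the Ptprc and Cdh5 limits, as above.

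Of 16 genes of the FGF and IGF system, only Fgf1 passed (3.85 ± 0.59 and 3.73 ± 0.38), at 6.38 to 49.4 CPM in osteocyte-like cells. Over 6 libraries 5 of 17 were higher (Fgf1, Fgfr1, Spry4, Dusp6 and Etv5) and 5 lower (Fgfr2, Fgfr3, Igf1, Igfbp4 and Igfbp5). Without knockout 3, Fgf1 and Fgfr1 were still higher in that comparison, and Spry4, Dusp6, Etv5 and Igf1 no longer passed. Of 22 genes of axon guidance and neural adhesion, 3 were higher (median -0.17): Ptprz1 and the semaphorins Sema7a (1.76 ± 0.24 and 2.01 ± 0.18) and Sema3d (0.96 ± 0.22 and 1.03 ± 0.16). Over 6 libraries the ligands of Ptprz1, Ptn and Mdk, were among 7 lower genes of 27, and Slit2, Slit3 and Unc5b among 6 higher. Sema3d lost its call in 3 libraries with the Ptprc and Cdh5 limits or without knockout 3, and Unc5b lost its call without knockout 3.

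Among 25 skeletal transcription factors, Mef2c, Irx5, Irx3 and Sox4 were higher and Tbx2 and Twist1 lower. Irx3, the neighbour of Irx5 in the same homeobox cluster, stood at 64.8, 112 and 65.2 CPM in control 1 to 3 and 49.4, 45.8 and 89.4 in knockout 1 to 3 and differed by 1.76 ± 0.25, adjusted p = 0.000382, and by 1.17 ± 0.13. Sox4 differed by 1.15 ± 0.19 and 0.53 ± 0.16, Tbx2, a repressor of the T-box family, by -1.13 ± 0.24 and -0.69 ± 0.16, and Twist1, an inhibitor of osteoblast maturation, by -0.92 ± 0.20 and -0.65 ± 0.12. Sp7, required for osteoblast formation, did not pass in either comparison (-0.30 ± 0.18 and -0.07 ± 0.12). Nfib, which is outside that list, was lower (-1.36 ± 0.22 and -0.77 ± 0.21). Without knockout 3, Tbx2 passed in neither comparison, and Sox4 and Nfib only against Ifitm5 and Bglap osteoblasts. With the Ptprc and Cdh5 limits, 3 were higher, without Mef2c, and the same pair lower.

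The calls of the bone matrix list depended on how osteoblasts were defined. Of 24 genes, Col24a1 and Fn1 were higher and Dcn, Lum and Thbs1 lower in 3 libraries, and 7 were higher and 8 lower in the 6. With the Ptprc and Cdh5 limits none was higher and 6 were lower (Col1a1, Col1a2, Sparc, Dcn, Lum and Thbs1; edgeR). Without knockout 3, Fn1 did not pass in 3 libraries (1.14, adjusted p = 0.0599). The proteoglycan lumican (Lum) stood at 566, 694 and 426 CPM in control 1 to 3 and 454, 524 and 478 in knockout 1 to 3, below 921 to 1785 CPM in Ifitm5-alone osteoblasts (-1.10 ± 0.15, adjusted p = 0.000292, and -1.18 ± 0.15, lower in 6 of 6 libraries). Decorin (Dcn) was lower by -1.32 ± 0.15 and -0.57 ± 0.17 on the same scale. Col1a1 did not pass against Ifitm5 and Bglap osteoblasts (-0.26 ± 0.09), was lower when these had the Ptprc and Cdh5 limits (-0.31 ± 0.06, edgeR, adjusted p = 0.0112) and was higher than in Ifitm5-alone osteoblasts (0.64 ± 0.10). Its level was 92681, 92289 and 89818 CPM in control 1 to 3 and 73098, 85992 and 63137 in knockout 1 to 3 in osteocyte-like cells, 83666 to 158595 CPM in osteoblasts and 40844 to 68672 CPM in Ifitm5-alone osteoblasts. Of 29 genes of collagen folding and secretion, only Pcolce, which helps trim procollagen, passed, and was lower (-0.83 ± 0.17). Over 6 libraries 11 were lower, among them the chaperones Hspa5, Hsp90b1, Calr and Canx, and none higher (median -0.29). Without knockout 3, Pcolce did not pass in 3 libraries and 4 of the 11 were called in that with Ifitm5-alone osteoblasts (Pcolce, Hsp90b1, Calr and Pdia6).

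Cell cycle genes were mostly lower than in Ifitm5-alone osteoblasts and few passed against Ifitm5 and Bglap osteoblasts. In the 6 libraries, 14 of 21 were lower, Mki67 (-1.86) and Top2a (-2.13) among them, the cyclin-dependent kinase inhibitor Cdkn1a (0.76 ± 0.09) was higher, and the median was -1.43. In the 3 libraries, Ccnd1 (-0.98 ± 0.22) and Tyms (-1.59 ± 0.41) were lower, Cdkn1a (0.82 ± 0.15) and Cdkn1c higher, and 13 of 17 did not pass. Cdkn1a stood at 617, 737 and 582 CPM in control 1 to 3 and 566, 449.8 and 937 in knockout 1 to 3 in osteocyte-like cells and was higher in 6 of 6 libraries. With the Ptprc and Cdh5 limits on osteoblasts, Cdkn1a was the only gene of 15 to pass. Without knockout 3, none of 20 passed against Ifitm5 and Bglap osteoblasts (edgeR, with 4 at an unadjusted p under 0.05; Cdkn1a 0.77, adjusted p = 0.0579), and against Ifitm5-alone osteoblasts 11 of 21 were lower and Cdkn1a higher.

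The genes with the largest differences among those at 50 CPM or more included several outside the lists. Prr15 stood at 7.97 to 148 CPM in osteocyte-like cells and had 119 UMIs there in the 3 libraries against 1 in osteoblasts, a ratio of CPM of 117 (95% interval for counting error 20.5 to 4640). Dock9, a guanine nucleotide exchange factor for CDC42, differed by 3.49 ± 0.30, adjusted p = 3.41e-06, and by 3.65 ± 0.23, and stood at 57.6, 171 and 60.2 CPM in control 1 to 3 and 62.2, 47.9 and 37.6 in knockout 1 to 3. Further genes were Fbln7 (3.95 ± 0.34 and 2.24 ± 0.27), Ddit4l, an inhibitor of mTOR signalling (3.17 ± 0.26 and 2.22 ± 0.26), the lipid phosphatase Plpp1 (2.90 ± 0.25 and 2.34 ± 0.30), the procollagen peptidase Adamts14 (2.83 ± 0.30 and 2.79 ± 0.20), Anxa8 (2.98 ± 0.44 and 1.38 ± 0.24) and Ighm (2.89 ± 0.40 and 2.13 ± 0.29), the heavy chain of IgM. Of the osteoclast markers, the integrin Itgb3 was higher (2.86 ± 0.34 and 2.05 ± 0.19) and Acp5 lower, the latter not without knockout 3 (-0.63).

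Several of the genes called lower are best known from other cells. Il1b, Srgn, Fabp4, Acp5, Pecam1, Tyrobp, Lyz2 and S100a8 were all called lower, and the osteoblast gate has no limit on Ptprc or Cdh5: 36 of the 269 osteoblasts of knockout 2 exceeded 1 UMI of either. With these limits on osteoblasts, chosen after the data were seen, 115 genes were higher and 43 lower, 108 and 35 of them from the calls above, and none of the 8 macrophage, 7 neutrophil and 4 endothelial markers tested passed. Of 3 erythroid markers tested, Hbb-bs and Hba-a1 were lower with these limits too (median -2.28). Without knockout 3, Acp5 and Lyz2 did not pass either. The Ptprc and Cdh5 limits left 233 of the 269 osteoblasts of knockout 2, and 85 of the 93 lower genes were tested with them. The source of the UMIs of such genes in osteoblasts was not tested. Of the 93 genes lower in the 3 libraries, 89 were tested against Ifitm5-alone osteoblasts, a comparison that also has other libraries, and 73 kept their sign. Those that turned included Pecam1 (0.014), Tyrobp (0.0071) and Lyz2 (0.53), none of which passed there, and Bglap3, Cpz, Car3 and Cyfip2. Bglap3, a near-identical copy of the genes that define the osteoblast gate, whose reads may be split among them, went from -2.12 ± 0.30 to 0.94 ± 0.18, and Cpz from -1.45 ± 0.27 to 0.32 ± 0.17, Car3 from -1.38 ± 0.21 to 0.30 ± 0.26 and Cyfip2 from -1.47 ± 0.27 to 0.26 ± 0.31, where only the first passed. The osteoblast membrane gene Tmem119, at 144, 79.0 and 105 CPM in control 1 to 3 and 242, 257 and 86.9 in knockout 1 to 3 in osteocyte-like cells, was lower in both (-1.45 ± 0.24 and -1.38 ± 0.21), as was the Rac regulator Chn1 (-1.74 ± 0.25 and -1.07 ± 0.20).

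**Figure D4:**
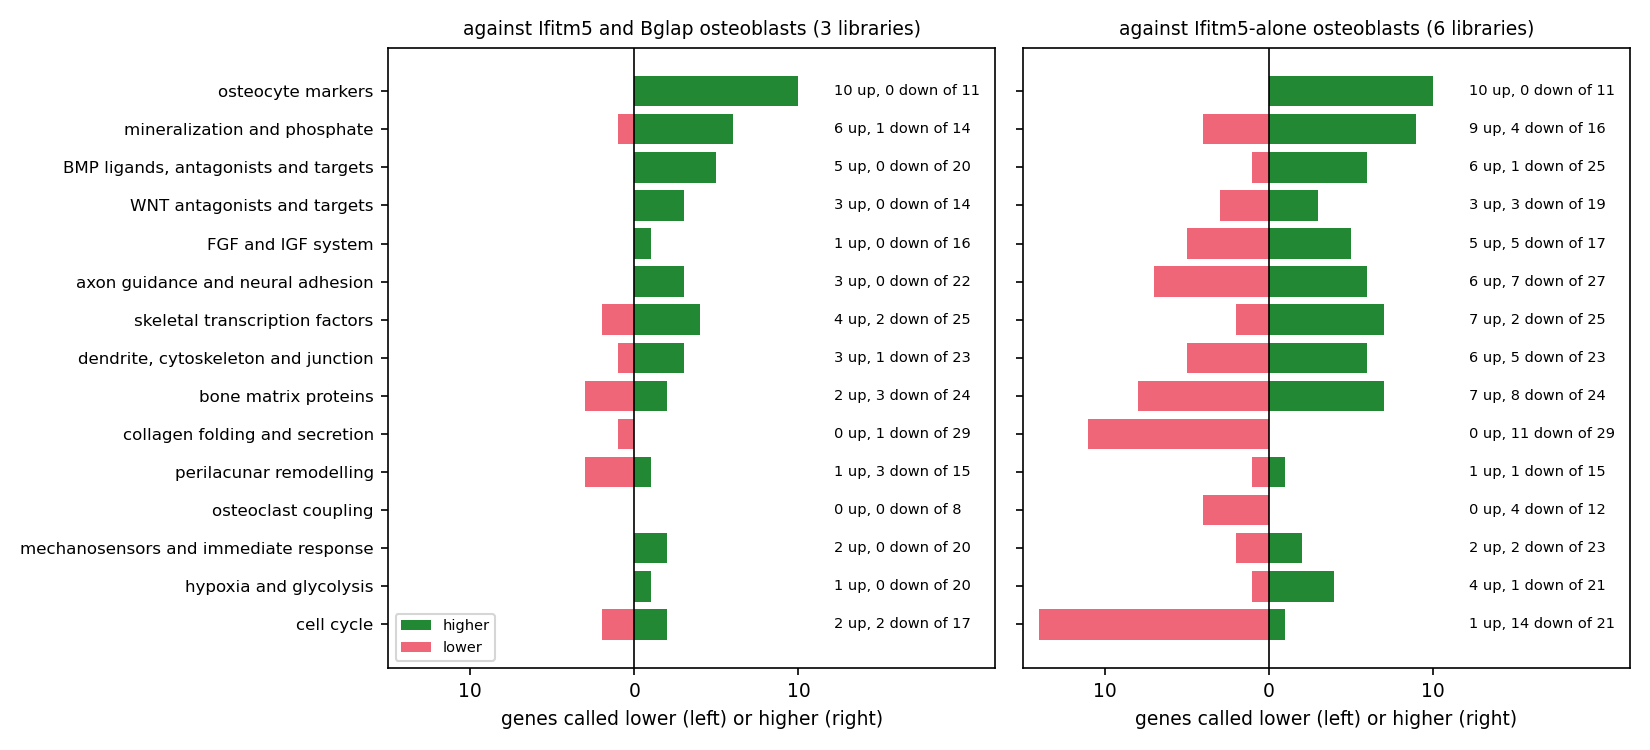
Number of genes of each list called higher (right) or lower (left) in osteocyte-like cells than in osteoblasts, for the comparison in 3 libraries and that with Ifitm5-alone osteoblasts in 6. Osteocyte markers have 10 higher and 0 lower in both, and cell cycle genes have 14 lower in the 6 libraries.

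Osteoprogenitors, taken as cells with at least 3 UMIs of Wif1 outside the other gates, numbered 1945 and were present in all 6 libraries (97 to 637 cells). Of 13147 genes, 1045 were higher (7.95%) and 1634 lower (12.4%) in osteocyte-like cells. The same 10 osteocyte markers were higher and none lower, with a median of 2.78: Ptprz1 by 4.60 ± 0.25, Dkk1 by 4.21 ± 0.25, Mepe by 4.36 ± 0.37 and Irx5 by 2.43 ± 0.19. Bone genes that did not pass or differed little from osteoblasts were also higher, among them Col1a1 (1.92 ± 0.16) and Sp7 (0.85 ± 0.12). In contrast to the comparison with osteoblasts, Enpp1 (0.58 ± 0.21) and Ank (0.49 ± 0.21) did not pass against osteoprogenitors, and Mmp13, a collagenase, was lower (-0.72 ± 0.21) where it had been higher than in osteoblasts (2.24 ± 0.22 and 0.68 ± 0.19, the second not passing without knockout 3). Of 21 cell cycle genes, 17 were lower. Markers of other cells moved with this comparison: 11 of 14 chondrocyte markers (median -1.01) and 5 of 6 pericyte markers (median -2.61) were lower in osteocyte-like cells. Of the osteoprogenitors, 68 of 221, 42 of 160 and 26 of 310 in control 1 to 3 and 23 of 97, 3 of 637 and 142 of 520 in knockout 1 to 3 had more Col2a1 than Col1a1, and the part of these cells in the comparison was not tested. Without knockout 3, 893 genes were higher and 1308 lower, 842 and 1217 of them from those calls, the 10 osteocyte markers passed again (median 2.73), and 16 cell cycle genes were lower.

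The share of osteocyte-like cells was compared between knockout and control. It was 2.29%, 0.391% and 0.234% of eligible barcodes in control 1 to 3, with Wilson 95% intervals of 1.74% to 3.01%, 0.265% to 0.576% and 0.144% to 0.380%. In knockout 1 to 3 it was 0.976% (0.601% to 1.58%), 2.67% (2.33% to 3.06%) and 1.80% (1.49% to 2.16%). Control 1 lay among the knockout libraries. The means were 0.971% ± 1.14 (SD, n = 3) in controls and 1.81% ± 0.847 (n = 3) in knockouts, a difference of 0.843 percentage points (two-sided exact permutation test, p = 0.3, where 0.1 is the smallest that 3 against 3 libraries allow). The difference was 1.502 points without control 1, 0.553 without control 2, 0.475 without control 3 and 0.416 without knockout 2. Relative to osteoblasts, the cells made up 94.2%, 67.6% and 64% of both classes in control 1 to 3 and 100%, 42.5% and 89.4% in knockout 1 to 3. The means were 75.3% ± 16.5 and 77.3% ± 30.6, a difference of 2.05 points (exact p = 0.9) that changed sign when single libraries were left out. A share of captured cells also depends on how far each callus was digested, which cannot be told apart from cell number here.

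Expression within the osteocyte-like cells was compared between groups over the 6 libraries. edgeR called 0 of 8595 genes (0%), with 254 at an unadjusted p under 0.05, and DESeq2 called 0, with 100 at an unadjusted p under 0.05. With no filter on low counts, edgeR called 10 higher and 12 lower of 20853. With the filter, no list had a called member. Piezo1 (chr8:122481698-122551329, minus strand) stood at 71.6, 79.0 and 35.1 CPM in control 1 to 3 and 113, 45.8 and 43.0 in knockout 1 to 3, with means of 61.9 ± 23.5 and 67.3 ± 39.8 CPM (SD, n = 3 each) and a log2 fold change of 0.01 ± 0.40 (edgeR, adjusted p = 1). The groups overlapped. The libraries count reads near the 3′ end of a transcript, and where the deleted exons lie is not given in the sources used here, so this level does not check the deletion. Against Ifitm5-alone osteoblasts, Piezo1 did not pass (0.44 ± 0.15), and it was higher than in osteoprogenitors (0.54 ± 0.16).

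Ptprz1 was at 896.6 ± 337 CPM in controls and 418 ± 50.8 in knockouts (SD, n = 3 each) and did not pass among all genes (log2 -1.08 ± 0.39, edgeR, unadjusted p = 0.0193, adjusted p = 1). It was 1 of the 254 of 8595 genes with an unadjusted p under 0.05. The genes that chose the cells lay in the same order, at 2878 ± 1067 and 1439 ± 163 CPM for Dmp1 and 1403 ± 647 and 620.4 ± 50.5 for Phex, and are described only. Control 2 and control 3, with the highest values, had the lowest median depths (12388 and 10039.5 UMIs), and the limit of 5 Dmp1 UMIs was the same at every depth. Control 1 and knockout 1, with median depths of 38845 and 38797 UMIs, stood at 583 and 372 CPM of Ptprz1 and 1791 and 1263 of Dmp1. The part of depth in the difference was not tested. Dkk1 was at 90.7 ± 49.7 and 64.8 ± 41.6 CPM, Bmp4 at 139.6 ± 105 and 85.7 ± 28.7, Mepe at 98.6 ± 101 and 86.3 ± 43.1 and Sost at 28.7 ± 29.7 and 34.2 ± 46.4, each with overlapping groups. Col1a1 was at 91596 ± 1552 and 74076 ± 11459 CPM and did not pass (log2 -0.28 ± 0.40, edgeR, adjusted p = 1). Fgf1, at 35.0 ± 12.7 and 11.1 ± 4.63 CPM, had a log2 fold change of -1.44 ± 0.45 (edgeR, unadjusted p = 0.00881, adjusted p = 1).

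**Figure D5:**
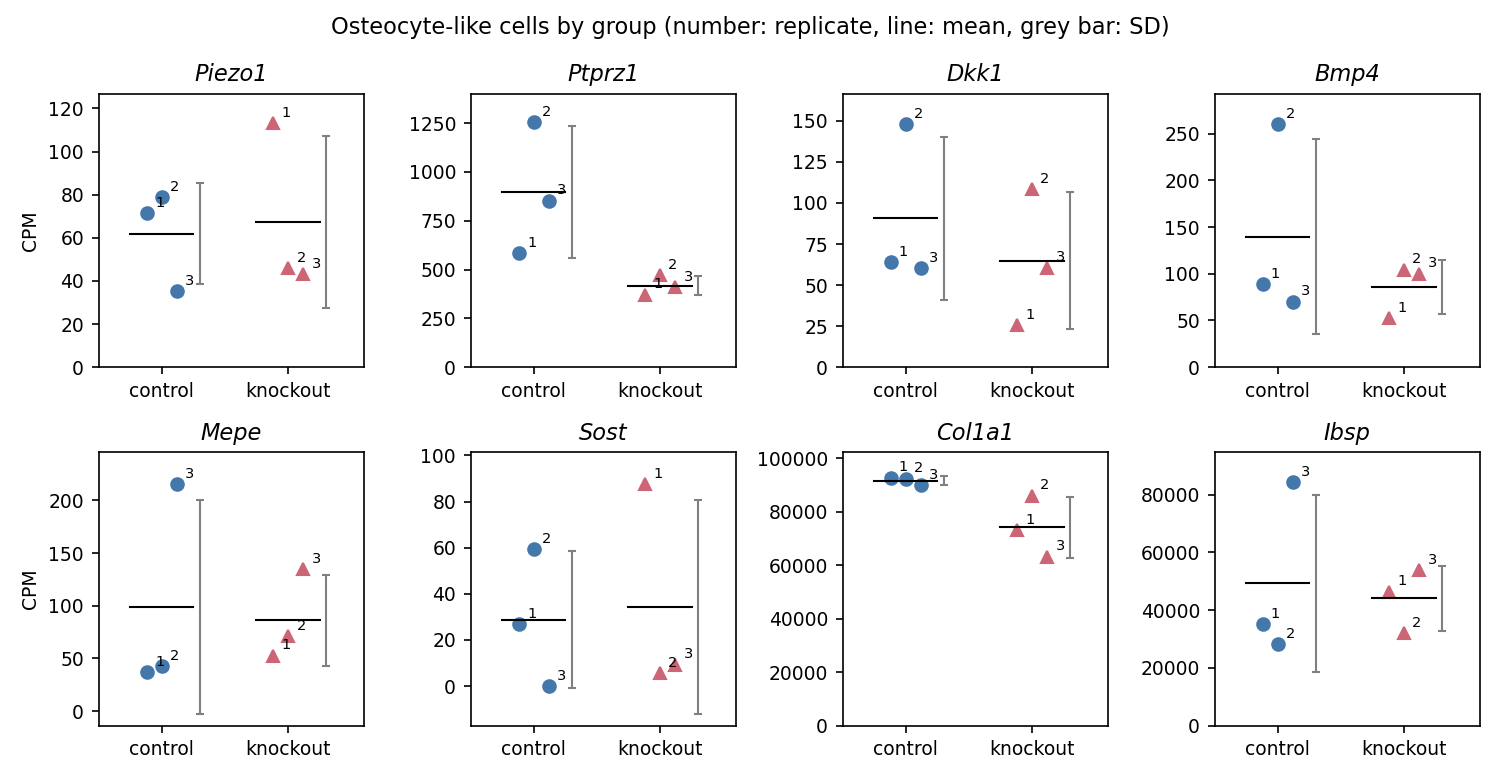
Level (CPM) of 8 genes in the osteocyte-like cells of each library, by group; numbers give the replicate, black lines the mean and grey bars the SD of 3 libraries. Ptprz1 lies at 372 to 472 CPM in knockouts and 583 to 1254 in controls and did not pass among all genes, nor did Col1a1. The groups overlap for Piezo1, Dkk1, Bmp4, Mepe, Sost and Ibsp.

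Whether the difference between osteocyte-like cells and Ifitm5-alone osteoblasts itself differed between groups was tested with an interaction term. Of 11047 genes, 1 passed (0.00905%), the chemokine Ccl5. Ccl5 stood at 0 in the osteocyte-like cells of all 3 controls and at 1.59, 14.1 and 2.44 CPM in those of knockout 1 to 3, and at 1.26 to 55.0 CPM in Ifitm5-alone osteoblasts, with the highest value in control 1. Without knockout 3, 5 of 9982 genes passed: the signed difference (osteocyte-like minus osteoblast, log2) was higher in knockouts for Ccl5 and Hist1h1b and lower for Serpina3n, F5 and Cxcl14.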

How the data were processed

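Callus cells of Piezo1 f/f and Piezo1 Col2a1 mice were captured with the 10x 3′ kit (v3) in 3 control and 3 knockout libraries. The study's text gives differing numbers of mice for this experiment, so whether each library holds 1 mouse is not known. The authors aligned reads to GRCm38 and counted UMIs with Cell Ranger (6.1.1 in both first replicates, 6.1.2 in the others). The deposited values are raw UMI counts per gene and barcode. The 2 libraries of replicate 3 list other genes than the rest (55357 and 55450 genes), and the 52081 genes shared by all 6 libraries were used. Seurat was used for the study's own analysis of the cells, from which no file was used here. Nothing in the labels says more of the replicates than that they are separate samples, so p-values measure the spread between these libraries.

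The osteocyte-like cells and the gene lists were chosen with earlier results of these data known. UMIs were summed per library and class, with at least 10 cells of each, and tested with the two-sided quasi-likelihood F test of edgeR 4.0.16 in R 4.3.3, after filterByExpr and TMM normalization, at a Benjamini-Hochberg adjusted p under 0.05. The library was a block in comparisons of classes. The SE is the log2 fold change divided by the square root of F. Shares were compared with exact permutation tests over all 20 assignments (scipy 1.17.1), which were not adjusted over the 2 shares. CPM are per 1000000 UMIs of the summed cells. For thinning, each cell was sampled to 3000 UMIs, with at most 300 cells per library of osteoprogenitors, neutrophils (at least 2 Csf3r and 10 S100a8 UMIs) and other stromal cells (the remaining barcodes within the Ptprc and Cdh5 limits). Doublet scores came from Scrublet (scanpy 1.11.5, cells of at least 500 UMIs). No cell was removed for its score, and an alternative removed the highest scores, 0.8% per 1000 cells. Positions are from GENCODE M21. Of the genes on the lists, 1 symbol (Destn) was not among those shared. Depth is given as UMIs per cell and per library, and intervals cover counting error only.

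The genes named are the gate and marker genes, the 15 with the largest change in each direction past the threshold at 50 CPM or more and in 1 direction in every library, up to 4 called members of each list, and Piezo1. Other genes were chosen after their values were seen. The result of a certain gene among those tested was left out and is not reported here. The test was checked on simulated data with known changes. The alternatives were other limits on Dmp1, Phex and UMIs, either gene alone, doublets removed, thinning, no filter, DESeq2 1.42.0, ribosomal, mitochondrial and rRNA genes left out, no library block, a replicate block, each library left out and both replicates 3 left out. The Ptprc and Cdh5 limits on osteoblasts, Ifitm5-alone osteoblasts, the test against osteoprogenitors, the interaction, these last 3 without knockout 3, fewer cells as the minimum, and Col2a1-rich cells left out were chosen after the data were seen.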

Additional observations from a re-analysis of the deposited data

Results flagged for a closer look

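Xist stood at 414 CPM in the osteocyte-like cells of knockout 3 and at no more than 0.519 CPM in those of the other 5 libraries, including all 3 controls, although the mice are described as male. The Y-linked genes Ddx3y and Eif2s3y were at 0 in the same cells and at 41.5 to 105 and 18.4 to 39.5 CPM in the other libraries. Its osteoblasts held 453 CPM of Xist, so the value is one of the library and not of the cells alone. Knockout and sex cannot be told apart for what is seen in this library only, and whether the library comes from the mice its label gives was not tested. Without it, the share of osteocyte-like cells differed by 0.851 percentage points between groups (exact permutation test, p = 0.4), and no gene differed in edgeR, with 104 at an unadjusted p under 0.05.

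For Ccl5 the signed class difference (osteocyte-like minus osteoblast) was higher in knockout than in control libraries by 10.27 on the log2 scale (edgeR interaction term, adjusted p = 0.0255), the only gene of 11047 to pass. It rests on a count of 0 in the osteocyte-like cells of the controls, so the fitted size depends on the prior count and is no bound. Ccl5 is best known from T and NK cells, and its level in Ifitm5-alone osteoblasts ran from 1.26 to 55.0 CPM. Without knockout 3 the value for Ccl5 was 10.03 (adjusted p = 0.0239), and 4 other genes passed: Hist1h1b (4.01), Serpina3n (-5.21), F5 (-2.95) and Cxcl14 (-7.00), whose lowest adjusted p with that library was 0.402.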

How the results depend on the processing

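Against 177 genes higher and 93 lower in the 3 libraries, counts that moved by over 1.5 times were 145 lower with Dmp1 of at least 10 and Phex of at least 4 UMIs and 301 higher and 226 lower with limits as a share of UMIs (both in 4 libraries), 44 lower with the highest doublet scores removed, 193 lower with Dmp1 alone (2 libraries), 75 and 22 with Phex alone, 91 and 23 after thinning, 156 lower with no filter, 76 and 28 with DESeq2, and 0 and 0 without the library block. Leaving out 1 library gave 52 to 219 higher and 29 to 119 lower, and both replicates 3 left out gave 56 lower. Alternatives chosen after the data were seen gave 116 and 45 (at least 5 cells of both classes, 4 libraries), 115 and 43 (osteoblasts with Ptprc and Cdh5 limits) and 655 and 674 (Ifitm5 alone, 6 libraries). Where the number of libraries differs, its part in the change was not tested. The last counts became 392 and 344 without knockout 3, and genes whose class difference differed between groups became 5 in place of 1, whereas those against osteoprogenitors moved by less than 1.5 times. A minimum of 20 cells of both classes left 1 library and could not be fitted. Genes differing between knockout and control numbered 22 with no filter (10 higher, 12 lower) and 0 under every other alternative run.

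The share relative to osteoblasts, 2.05 points higher in knockouts, ran from -9.29 to 19.4 when 1 library was left out (-1.80 without control 2, -3.58 without control 3, -4.01 without knockout 3) and was -9.64 without both replicates 3. The share of eligible barcodes kept its direction in every alternative run (0.398 to 1.502). Piezo1 between groups, 0.01 on the log2 scale, was -0.043 with the stricter Dmp1 and Phex limits, -0.27 with limits as a share of UMIs, -0.18 at 10000 UMIs or more, -0.0070 without the Col2a1-rich cells, and -0.39 to 0.22 with 1 library left out.

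Of 86 named genes tested, 82 passed, and 65 of these changed sign in no alternative that tested them. Of those 82, the call was lost for all 80 tested without the library block, 39 of 81 with Phex alone, 30 of 82 with DESeq2, 29 of 80 with the highest doublet scores removed, 29 of 81 with the Ptprc and Cdh5 limits, 24 of 65 without knockout 2, 23 of 68 after thinning, 20 of 81 without Col2a1-rich cells, and at most 20 in each other alternative, sign changes apart. Signs changed with Ifitm5-alone osteoblasts for Col1a1 (0.64), Bglap3 (0.94), Cyfip2 (0.26), Cpz (0.32), Car3 (0.30), Comp (-0.020), Pecam1 (0.014), Tyrobp (0.0071), Lyz2 (0.53) and Thbs4 (-0.034), with the Ptprc and Cdh5 limits for Ly6a (0.21), Ifi27l2a (0.070) and Lyz2 (0.39), with Phex alone for Alpl (0.28), Hbb-bs (2.49), Hba-a1 (3.63) and Smpd3 (0.41), with Dmp1 alone for Alpl (0.22), Ngp (0.071) and Piezo1 (-0.036), without control 2 for Alpl (0.11, against -0.55 without knockout 3), after thinning for Sp7 (0.21) and Hapln1 (-0.0046), and without Col2a1-rich cells for Col2a1 (-0.12). The causes were not tested.

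With a replicate block, the shares had exact p = 0.5 and 0.75, 0 genes were called and Piezo1 was at 0.09. Same-numbered libraries correlated at 0.381, 0.0715 and 0.0296 for replicates 1 to 3. The other pairs of a control and a knockout library lay between -0.313 and 0.177. Control 1 and knockout 1 thus had the highest correlation, and they shared a Cell Ranger version and the greatest median depths (38845 and 38797 UMIs). Both replicates 3 shared a gene list. Whether same-numbered libraries form batches was not tested, and the main tests did not pair them. Few osteoblasts in the controls limit the comparison of classes, and with 16 cells in control 3 and in knockout 1, low counts limit that of groups.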

Other observations

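Further lists were compared between osteocyte-like cells and osteoblasts. Among genes of dendrites, cytoskeleton and junctions, Pdpn and Cd44 were higher and N-cadherin (Cdh2, -0.97 ± 0.21) lower, and the gap junction gene Gja1, the main connexin of osteocytes, did not pass (-0.13 ± 0.17) in 3 libraries and was higher in 6 (0.39 ± 0.09). Cdh2 passed in neither comparison without knockout 3. Of 20 mechanosensors and immediate response genes, Cacna2d1 and Ccn2 were higher (1.30 ± 0.19 for Ccn2, a target of YAP and TAZ) and none lower in 3 libraries. Without knockout 3, Cacna2d1 lost its call though its fold change was no smaller (1.15 against 1.06, edgeR, adjusted p = 0.0538). Cacna2d1 also lost its call with the Ptprc and Cdh5 limits on osteoblasts and in the 6 libraries. There, Ccn2 and Egr1 were higher and Igf1 and Postn lower, of 23, and of these Ccn2 and Postn passed without knockout 3. Of 20 genes of hypoxia and glycolysis, the vasodilator Adm was higher (1.63 ± 0.43) and no other passed in 3 libraries, and with the Ptprc and Cdh5 limits Adm did not pass either (1.81 ± 0.46, edgeR, adjusted p = 0.0831). Without knockout 3, Ndrg1 and Adm were higher and Mt1 lower. In the 6 libraries Epas1, Vegfa, Ndrg1 and Adm were higher and Eno1 lower, of 21, and of these Ndrg1 and Adm passed without knockout 3. Of 15 genes of perilacunar remodelling, Mmp13 was higher and Mmp16, Acp5 and Car3 lower, of which Mmp13 and Car3 passed without knockout 3 and with the Ptprc and Cdh5 limits. None of 8 genes of osteoclast coupling passed in 3 libraries, and in 6 libraries Cxcl12, Ccl2, Ccl7 and Wnt5a were lower (edgeR, 4 of 12), Wnt5a not without knockout 3.

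Of 14 chondrocyte markers, Col2a1, Col9a2, Comp and Hapln1 were higher in 3 libraries (median 0.75), and only Col11a2 in the 6. These calls changed with the cells used. Col2a1 was at -0.12 without the 25 cells rich in it, Hapln1 at -0.0046 after thinning, and Comp at -0.020 against Ifitm5-alone osteoblasts. Without knockout 3, Col2a1 did not pass, though its fold change was about the same (1.02 against 1.00, edgeR, adjusted p = 0.0690). With the Ptprc and Cdh5 limits only Comp was higher and Col11a2 was lower, and against Ifitm5-alone osteoblasts without knockout 3 none of 14 passed (edgeR, with 2 at an unadjusted p under 0.05). Of 9 hypertrophic chondrocyte markers, Ibsp and Mmp13 were higher in 3 libraries, and Col10a1 (2.43 ± 0.74), Ihh (1.03 ± 0.23) and Pank1 also in the 6. Of these 5 only Pank1 passed against Ifitm5-alone osteoblasts without knockout 3. Of 7 osteoprogenitor markers only Wif1 was higher in 3 libraries, and in the 6 Wif1 was higher and Lepr, Cxcl12 and Pdgfrb lower, of 9. Of 3 pericyte markers only Cspg4 was higher in 3 libraries, whereas in the 6 it did not pass and Rgs5 and Myh11 were lower, of 5, though neither was called without knockout 3. Of 15 osteoblast markers, Ibsp and Spp1 were higher and Bglap3 and Smpd3 lower in 3 libraries (median -0.28). Without knockout 3, Ibsp and Spp1 were higher and Bglap3, Omd and Tnn lower, and with the Ptprc and Cdh5 limits 2 were higher and 5 lower. In the 6 libraries 8 were higher, Bglap3 among them, and 4 lower (median 0.51).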
